A study of Mus musculus with 16 samples.

Results

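Pou5f1 (Oct4), Sox2 and Nanog are the 3 core transcription factors of the pluripotent cell, and they were read here in mouse embryonic stem cells and in cells of an epiblast type. They were taken by name: every gene probe whose gene name in the scanner output was Pou5f1, Sox2 or Nanog was used, which gave 3 of the 41174 gene probes on the array, 1 for each gene. Oct4, a POU factor, and SOX2, an HMG-box factor, bind DNA side by side at a composite element, and together with the homeodomain protein NANOG they occupy the regulatory regions of pluripotency genes, their own included. Naive embryonic stem (ES) cells, which stand for the inner cell mass, and primed epiblast stem cells (EpiSC), which stand for the later epiblast, are both known to express Oct4 and SOX2, while Nanog is known for lower and variable levels in the primed state.

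RNA of 16 cultures was hybridised to 16 one-colour arrays in 7 groups. The non-obese diabetic (NOD) strain gave NOD EpiSC-like ES line 1 at passages 5, 7, 9 and 10 (4 arrays, all of 1 line), NOD EpiSC-like induced pluripotent stem (iPS) line 6 at passages 7 and 12 (2 arrays, all of 1 line) and NOD ES cells (3 arrays, titled NOD-ES 4K, NOD ES 43 KP/CH and NOD ES 85 KP). Lines not titled NOD gave EpiSC at passages 12 and 20 (2 arrays) and EpiSC iPS (2 arrays, titled iPS_EpiSC 3M and 1K), whose titles name no strain. They also gave 129 ES cells labelled mESM at passage 8 (2 arrays with the same source label) and 129 ES cells labelled epiESM at passage 8 (1 array). No agent, allele or culture factor is given for any group in the sources used here, nor the meaning of mESM, epiESM and the title suffixes. ES cultures were depleted of embryonic fibroblasts on gelatin and the EpiSC and EpiSC-like colonies were separated by hand, so the purification differed along the same line as the cell state and the 2 cannot be told apart. Where arrays are passages of 1 line, or may be 1 culture, p-values measure the spread between these arrays and not between independently derived lines.

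Levels are log2 of the processed spot signal minus the 75th percentile of the gene probes of that array, so that 0 is the 75th percentile, and levels of different probes were not set against each other. Spots well above background made up 26.3% (NOD ES replicate 1) to 88.5% of an array's gene spots, and no spot was saturated. The Pou5f1 probe was well above background on 15 arrays, all but NOD EpiSC-like iPS replicate 1, and the Sox2 and Nanog probes on all 16. In a limma fit with 1 mean per group over all arrays, a gene was called changed at a Benjamini-Hochberg adjusted p under 0.05 over the 23167 genes tested. Over all genes, 2 arrays were less like their own group than like another one. The SD of log2 differences between NOD ES replicate 1 and EpiSC iPS replicate 1 was 0.698, against 1.13 and 1.15 to the other NOD ES arrays, and between EpiSC iPS replicate 2 and NOD ES replicates 2 and 3 it was 0.387 and 0.397, against 0.964 to EpiSC iPS replicate 1. All 3 of NOD ES replicate 1 and the EpiSC iPS arrays shared a slide, and results that rest on the 2 arrays are given with and without them. Both arrays were kept in the groups of their labels. Whether these labels were exchanged was not tested, and values of NOD ES and EpiSC iPS hold for the arrays as labelled.

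Of the label markers, those of ES cells separated the 2 states and Fgf5 did not. Zfp42 (Rex1), a naive marker, was well above background on all 8 arrays of the ES and EpiSC iPS groups, here called ES-like, and on 1 of the 8 EpiSC and EpiSC-like arrays. Fgf5, the ligand that marks the primed epiblast, had a mean level of 3.01 ± 0.01 (SD, n = 2) in EpiSC and 1.12 ± 0.15 (SD, n = 4) in the NOD EpiSC-like ES line. In the NOD EpiSC-like iPS line it was -2.16 ± 0.06 (SD, n = 2), near the -2.97 ± 0.45 (SD, n = 3) of NOD ES, so this marker was at no EpiSC level in the line labelled EpiSC-like iPS.

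Because the 3 genes are known to be bound by their own products, the 250 bases before each first annotated start are shown (RefSeq, GRCm38.p6, plus strand; each ends at the base before the start), with the matches to 5 short motifs in capitals. The motifs, searched on both strands, were the Oct-Sox composite (CATTGT, any 1 base, then ATGCNAA), the octamer core ATGCAAA and the SOX core CATTGT, which both lie in or overlap the composite, the GC box GGGCGG, and the nuclear receptor half-site AGGTCA.
Pou5f1, chr17:35505782-35506031: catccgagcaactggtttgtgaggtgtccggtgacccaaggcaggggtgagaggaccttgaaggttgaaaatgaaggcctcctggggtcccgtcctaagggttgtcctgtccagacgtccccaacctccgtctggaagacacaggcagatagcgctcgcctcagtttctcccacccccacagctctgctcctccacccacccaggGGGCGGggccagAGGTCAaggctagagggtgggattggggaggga
Sox2, chr3:34649745-34649994: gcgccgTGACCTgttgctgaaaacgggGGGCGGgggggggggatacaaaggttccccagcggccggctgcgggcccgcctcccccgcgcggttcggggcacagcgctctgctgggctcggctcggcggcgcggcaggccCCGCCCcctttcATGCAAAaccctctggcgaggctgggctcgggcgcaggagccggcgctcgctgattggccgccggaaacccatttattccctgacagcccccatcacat
Nanog, chr6:122707239-122707488: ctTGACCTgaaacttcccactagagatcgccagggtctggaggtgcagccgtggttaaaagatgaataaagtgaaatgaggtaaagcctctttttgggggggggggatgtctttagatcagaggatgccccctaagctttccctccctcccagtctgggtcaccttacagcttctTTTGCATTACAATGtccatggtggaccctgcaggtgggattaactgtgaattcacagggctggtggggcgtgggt
The Nanog window held the composite on the minus strand, from base -75 to base -62 before the start, and of 32851 RefSeq windows of that length 2 (0.00609%) held it, both of them windows of Nanog. The Pou5f1 window held 1 GC box and, closer to the start, 1 nuclear receptor half-site, from base -33 to base -28. The Sox2 window held an octamer core, from base -99 to base -93, 2 GC boxes and 1 half-site. The octamer core was found in 4.12% of all windows, the SOX core in 10.7%, the GC box in 32.7% and the half-site in 14% (1 or more matches each). A match is a description of the letters in this window and no evidence of binding, and distal enhancers lie outside it. The probes themselves lie, per the grid file of the array on build mm7, at chr17:33612047-33612107 (Pou5f1, NM_013633), chr3:34459231-34459290 (Sox2, NM_011443) and chr6:122750894-122750953 (Nanog, AK010332). Whether a probe lies in coding sequence or elsewhere in its transcript was not analysed here, since no annotation of that build was used.

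Pou5f1, the gene of Oct4, fell in every EpiSC and EpiSC-like group, and the most in the NOD EpiSC-like iPS line. Its level was 4.46 and 4.44 in mESM, 3.55 in epiESM, 2.26, 4.44 and 3.77 in NOD ES replicates 1 to 3, and 2.32 and 4.73 in EpiSC iPS replicates 1 and 2. It was 0.96 and 0.35 in EpiSC, -1.43, -0.53, -1.37 and -1.04 in replicates 1 to 4 of the NOD EpiSC-like ES line, and -4.34 and -3.32 in the NOD EpiSC-like iPS line. The lowest ES-like array stood above the highest EpiSC array, and the EpiSC, EpiSC-like ES and EpiSC-like iPS arrays did not overlap with each other. Such separation, here and below, describes the arrays and was not set against its share over all genes. EpiSC and EpiSC-like groups differed from the ES-like groups by -5.17 ± 0.42 log2 units (SE, 8 against 8 arrays), a 36.1-fold lower level with an adjusted p of 1.99e-06 in limma. In that comparison all 3 of these genes were called, against 44.2% of all genes tested. In these bulk RNA samples, fewer cells that express a gene and less of its RNA per cell cannot be told apart.

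Sox2, the partner of Oct4 at the composite element, fell less than both others, and its lowest levels were those of the NOD EpiSC-like iPS line. Its level was 3.77 and 3.73 in mESM, 3.68 in epiESM, 2.09, 3.80 and 3.70 in NOD ES replicates 1 to 3, and 1.45 and 3.87 in EpiSC iPS replicates 1 and 2. It was 2.29 and 2.45 in EpiSC, 2.10, 2.22, 2.37 and 2.52 in the NOD EpiSC-like ES line, and 0.06 and 0.07 in the NOD EpiSC-like iPS line. EpiSC and the NOD EpiSC-like ES line overlapped with each other. Of the ES-like arrays, NOD ES replicate 1 (2.09) lay just below the range of these groups and EpiSC iPS replicate 1 (1.45) further below. Both lay above the NOD EpiSC-like iPS line. The difference between the states was -1.74 ± 0.36 log2 units (SE, 8 against 8 arrays; adjusted p = 0.00209, limma), or 3.34-fold. With slide as a fixed block it was -2.23 with an adjusted p of 0.0898, which ends the call.

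Nanog, the homeodomain factor, fell about as far as Pou5f1 and split the EpiSC and EpiSC-like groups differently. Its level was 3.91 and 3.82 in mESM, 3.50 in epiESM, 0.63, 3.86 and 3.90 in NOD ES replicates 1 to 3, and 1.14 and 3.89 in EpiSC iPS replicates 1 and 2. It was -0.73 and -0.40 in EpiSC, -2.73, -2.18, -2.32 and -2.06 in the NOD EpiSC-like ES line, and -2.49 and -2.28 in the NOD EpiSC-like iPS line. The ES-like arrays did not overlap with the others, and the 2 NOD EpiSC-like lines lay within the same range below EpiSC. The difference between the states was -4.92 ± 0.54 log2 units (SE, 8 against 8 arrays), or 30.4-fold, with an adjusted p of 1.87e-05 in limma.

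**Figure D1:**
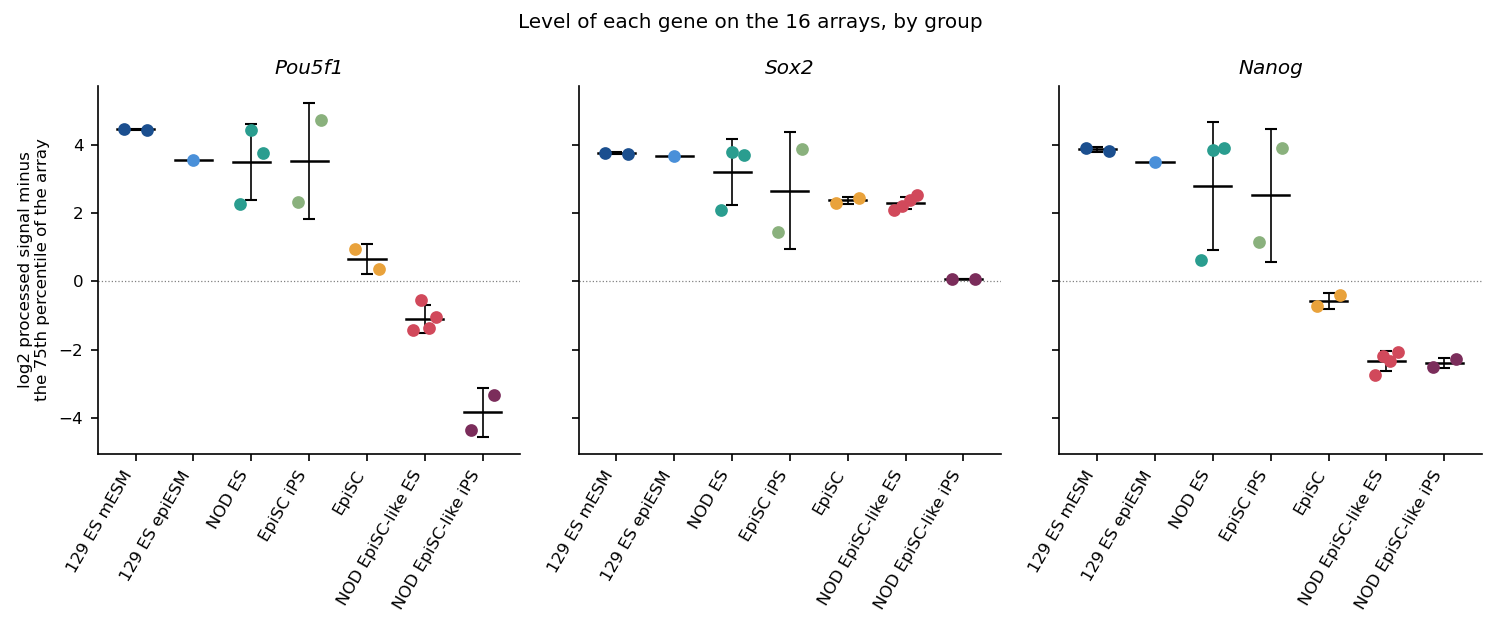
Level of Pou5f1, Sox2 and Nanog on each of the 16 arrays (points), by group, in log2 units above the array's 75th percentile; black bars are group means, whiskers 1 SD, and epiESM has 1 array. Pou5f1 steps down from EpiSC to both NOD EpiSC-like lines, Sox2 is low in the NOD EpiSC-like iPS line, and Nanog is at its lowest in both NOD EpiSC-like lines.

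The order of the group means was the same at its ends for all 3 genes, with mESM highest, then epiESM, and then EpiSC, the NOD EpiSC-like ES line and the NOD EpiSC-like iPS line as the lowest 3. For Pou5f1 the neighbours that differed were NOD ES over EpiSC, by 2.83 ± 0.72 log2 units (SE, 3 against 2 arrays; adjusted p = 0.0141, limma; 27.1% of genes called), and the ES line over the iPS line. EpiSC over the ES line, at 1.75 ± 0.68, had an adjusted p of 0.143 (9.28% of genes called). For Sox2 the single pair of neighbours that differed was the ES line over the iPS line. For Nanog no pair of neighbours was called, the widest step being EpiSC iPS over EpiSC with an adjusted p of 0.0522. Within the ES-like groups the neighbours were not called for any of the 3 genes. There few genes were called at all: 4.02% for mESM and epiESM, 0.108% for epiESM and EpiSC iPS, 0.755% for epiESM and NOD ES, and 0.00432% for EpiSC iPS and NOD ES.

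The 3 genes did not fall by the same amount. Measured as the change from the mESM mean within each array, Pou5f1 changed by more than Sox2 on 8 of the 8 EpiSC and EpiSC-like arrays, and so did Nanog. The fall of Pou5f1 exceeded that of Sox2 by a difference of -3.58 log2 units (8 against 8 arrays, exact 2-sided permutation test over 12870 splits, p = 0.000155, adjusted over 3 pairs 0.000233), and that of Nanog exceeded it by a difference of -3.48 (p = 0.000155, the smallest this exact permutation test can give). Pou5f1 and Nanog differed from each other by -0.11 (exact permutation p = 0.834), with Nanog having the larger change on 6 of the 8 arrays. In NOD cells alone (6 against 3 arrays, 84 splits) the values were -3.85 for Pou5f1 against Sox2 and -3.50 for Nanog against Sox2. Each had an exact permutation p of 0.0119, the smallest that 84 splits can give (adjusted p = 0.0179). Pou5f1 against Nanog was at -0.35 (exact permutation, adjusted p = 0.726). Arrays of 1 line are not independent, so these permutation p-values hold for the arrays and not for lines.

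**Figure D2:**
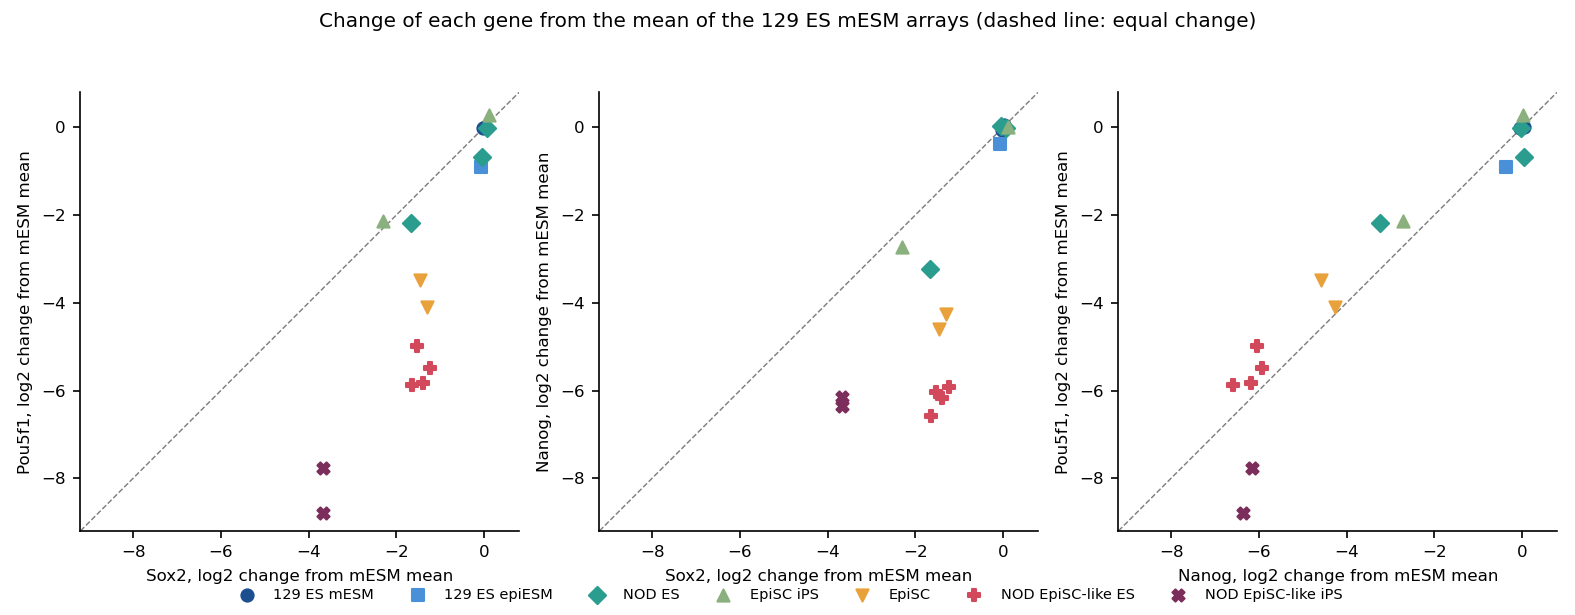
Change of each gene from the mean of the 129 ES mESM arrays, in log2 units, 1 point per array and 1 symbol per group, for the 3 pairs of genes; the dashed line marks equal change. EpiSC and both NOD EpiSC-like lines lie below the line in the Sox2 panels, and in the Nanog against Pou5f1 panel the 2 lines lie on opposite sides of it.

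Within NOD cells the question was how far the EpiSC-like lines had moved from NOD ES cells. The ES line was lower by -4.58 ± 0.60 log2 units for Pou5f1 (23.9-fold, adjusted p = 0.000106) and by -5.12 ± 0.77 for Nanog (34.7-fold, adjusted p = 0.00028) (SE, 4 against 3 arrays, limma). Sox2 differed by -0.89 ± 0.52, with an adjusted p of 0.19 and a 95% interval from -2.04 to 0.25, in a comparison where 41.7% of genes were called. Sox2 was called there without NOD ES replicate 1 (-1.45, adjusted p = 0.0323), and without that array and EpiSC iPS replicate 2 its adjusted p was 1.44e-05, with 53.7% of genes called. The iPS line was lower for all 3: Pou5f1 fell by 160-fold (-7.32 ± 0.72, adjusted p = 2.14e-05), Sox2 by 8.76-fold (-3.13 ± 0.62, adjusted p = 0.0024) and Nanog by 36.2-fold (-5.18 ± 0.92, adjusted p = 0.00117) (2 against 3 arrays, 33.2% of genes called). Since 1 of the 2 Pou5f1 spots of the iPS line was not well above background, its fold rests on a signal near the limit of detection. With both lines weighted equally, the differences from the same NOD ES arrays were -5.95 ± 0.57 for Pou5f1, -2.01 ± 0.49 for Sox2 and -5.15 ± 0.73 for Nanog, all called (38.1% of genes). With slide as a fixed block, Sox2 was no longer called for the iPS line (-3.60, adjusted p = 0.111) or for both lines (-2.57, adjusted p = 0.108).

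The 2 NOD EpiSC-like lines differed in Pou5f1 and Sox2 and not detectably in Nanog. Pou5f1 was lower in the iPS line than in the ES line by -2.74 ± 0.68 log2 units (6.67-fold, adjusted p = 0.0135) and Sox2 by -2.24 ± 0.59 (4.71-fold, adjusted p = 0.0179) (SE, 2 against 4 arrays, limma; 25.6% of genes called). Nanog differed by -0.06 ± 0.88, with a 95% interval from -1.99 to 1.86. On the slide that held 1 array of each line the differences were -2.91, -2.04 and 0.24. Both calls were lost with slide as a fixed block (adjusted p = 0.111 and 0.228) and without iPS replicate 1 (Pou5f1 -2.23, adjusted p = 0.0991; Sox2 -2.23, adjusted p = 0.0723), and Sox2 without iPS replicate 2 as well (adjusted p = 0.115). With the mean signal corrected by normexp in place of the processed signal, the Pou5f1 difference was 0.33 while the median of all genes was 0.72, which puts Pou5f1 at -0.39 relative to that median, and Sox2 was -1.67 (adjusted p = 0.0827). Relative to that median both genes stayed lower in the iPS line (Sox2 at -2.40), while the Pou5f1 difference itself was no longer below 0.

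**Figure D3:**
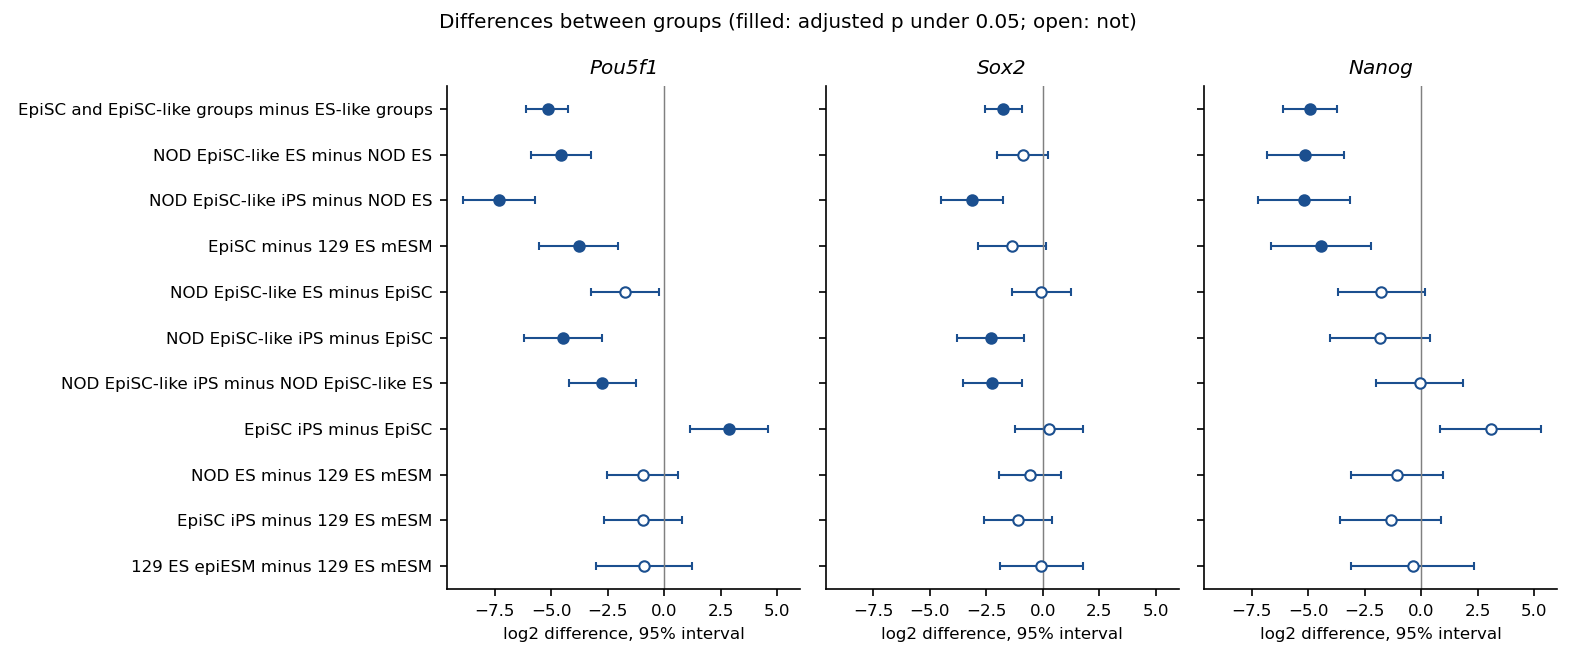
Log2 difference of Pou5f1, Sox2 and Nanog in 11 comparisons, with 95% intervals from the limma fit; filled points have an adjusted p under 0.05 over all genes tested. Pou5f1 and Nanog are filled in the 4 comparisons of EpiSC or EpiSC-like cells with ES cells or the ES-like groups, and Sox2 in 2 of these.

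EpiSC set against 129 ES cells in mESM asked the same of cells not titled NOD. Pou5f1 was lower in EpiSC by -3.79 ± 0.79 log2 units (13.9-fold, adjusted p = 0.00497) and Nanog by -4.43 ± 1.01 (21.5-fold, adjusted p = 0.00847) (SE, 2 against 2 arrays, limma). Sox2 differed by -1.37 ± 0.68 (adjusted p = 0.173), in a comparison that called 24.2% of genes. Its 4 arrays did not overlap, at 2.29 and 2.45 against 3.77 and 3.73, and without the 2 arrays named above it was called (adjusted p = 9.79e-05), as were 44.5% of genes. With slide as a fixed block neither Pou5f1 (-3.44, adjusted p = 0.145) nor Nanog (-3.96, adjusted p = 0.124) was called, and no slide held both groups. The Nanog call was also lost with the 2 mESM arrays averaged as 1 sample (adjusted p = 0.0527) and without EpiSC replicate 1, mESM replicate 1 or mESM replicate 2 (adjusted p up to 0.0554).

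Set against EpiSC, the NOD EpiSC-like ES line had a Sox2 level -0.07 ± 0.59 log2 units away, with a 95% interval from -1.37 to 1.23, and lower values of Pou5f1 (-1.75 ± 0.68, adjusted p = 0.143) and Nanog (-1.76 ± 0.88, adjusted p = 0.262) (SE, 4 against 2 arrays, limma). None of the 3 was called, as were 9.28% of genes. On the 2 slides that held both groups, Pou5f1 differed by -2.39 and -1.72 and Nanog by -2.0 and -1.92. Without NOD ES replicate 1 and EpiSC iPS replicate 2, Pou5f1 (adjusted p = 0.00577) and Nanog (adjusted p = 0.000185) were called. For both lines against EpiSC, that omission raised the share of all genes called from 16.1% to 41.4%. The iPS line was lower than EpiSC by -4.49 ± 0.79 for Pou5f1 (adjusted p = 0.00219) and by -2.31 ± 0.68 for Sox2 (adjusted p = 0.0302), and by -1.82 ± 1.01 for Nanog (adjusted p = 0.192) (2 against 2 arrays, 26.5% of genes called). Nanog was called without NOD ES replicate 1 (adjusted p = 0.0479), without it and EpiSC iPS replicate 2 (0.000181) and with both groups fitted alone (0.0165). The Sox2 call was lost without any 1 of those 4 arrays (adjusted p from 0.0798 to 0.138) and with slide as a fixed block (0.18), and the Pou5f1 call with normexp (-0.81, adjusted p = 0.38), where the median of all genes was 1.03. Over both lines Pou5f1 was lower than in EpiSC by -3.12 ± 0.65 (adjusted p = 0.00852), with Sox2 at -1.19 ± 0.57 and Nanog at -1.79 ± 0.84 not called (16.1% of genes were). Without the 2 arrays named above Sox2 (adjusted p = 0.000127) and Nanog (adjusted p = 9.1e-05) were called too, with 41.4% of genes. The Pou5f1 call over both lines was lost without EpiSC replicate 1 (-2.81, adjusted p = 0.105) or EpiSC replicate 2 (-3.42, adjusted p = 0.0609), and with normexp (-0.98, adjusted p = 0.229).

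A test of whether the state difference was larger in NOD than in the other cells, both NOD lines minus NOD ES less EpiSC minus mESM, gave -2.15 ± 0.97 for Pou5f1 (adjusted p = 0.185), -0.64 ± 0.84 for Sox2 and -0.72 ± 1.25 for Nanog (12.5% of genes called). None was called in limma over all 16 arrays. Without NOD ES replicate 1 and EpiSC iPS replicate 2 the values were -2.77 (adjusted p = 0.00409), -1.19 (adjusted p = 0.00189) and -1.80 (adjusted p = 0.00138), all 3 called, as were 35.4% of genes. Without NOD ES replicate 1 alone, Pou5f1 was called (adjusted p = 0.0459).

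The EpiSC iPS arrays, which the label names after EpiSC, carried all 3 genes at ES-like levels on replicate 2. On replicate 1 Pou5f1 and Nanog were at intermediate levels, while Sox2 (1.45) lay below both EpiSC arrays (2.29 and 2.45). Against EpiSC, Pou5f1 was higher by 2.87 ± 0.79 log2 units (7.29-fold, adjusted p = 0.0239), Nanog by 3.08 ± 1.01 (adjusted p = 0.0522) and Sox2 by 0.28 ± 0.68 (SE, 2 against 2 arrays, limma; 20.9% of genes called). Without EpiSC iPS replicate 2 and NOD ES replicate 1, the remaining array was above EpiSC by 1.66 for Pou5f1 (called) and 1.71 for Nanog (adjusted p = 0.00117) and below it by -0.93 for Sox2 (adjusted p = 0.00448), with 41.8% of genes called and its spread taken from the other groups. With EpiSC iPS replicate 2 alone left out, Pou5f1 (adjusted p = 0.147) and Sox2 (adjusted p = 0.276) were not called at the same differences, so the direction of Sox2 turned with that array and was called only with both left out. The Pou5f1 call was also lost without EpiSC replicate 1 (3.17, adjusted p = 0.0691) or EpiSC replicate 2 (2.56, adjusted p = 0.146). Against mESM none of the 3 was called (10.9% of genes were), at -0.93 ± 0.79, -1.09 ± 0.68 and -1.35 ± 1.01. EpiSC iPS replicate 1 by itself, with NOD ES replicate 1 also left out, differed from mESM by -2.13, -2.30 and -2.72. For replicate 2 by itself the differences were 0.28, 0.12 and 0.02.

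Among ES cells no difference was called for any of the 3 genes. NOD ES differed from mESM by -0.96 ± 0.72 log2 units for Pou5f1, -0.55 ± 0.62 for Sox2 and -1.07 ± 0.92 for Nanog (SE, 3 against 2 arrays, limma; 9.01% of genes called). Without NOD ES replicate 1, Sox2 differed by 0.00 and Nanog by 0.01, while Pou5f1 was at -0.35. The single epiESM array differed from mESM by -0.90 ± 0.97, -0.06 ± 0.84 and -0.37 ± 1.24 in the same order, and the 95% interval for Pou5f1 ran from -3.02 to 1.22, so a several-fold difference was not detectable with 1 array. A fit on the 3 arrays of these groups alone takes its spread from the 2 mESM arrays, which share a source label and may be 1 culture. Its calls are therefore not given, and its differences stayed at -0.90 for Pou5f1 and -0.37 for Nanog.

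Fibroblast transcripts rose from ES to EpiSC or EpiSC-like cells, but not in every comparison where these genes were lower. A list of 20 fibroblast genes, all tested, had a summed level (linear, in units of each array's 75th percentile) of 61 and 66.7 in mESM, 120 to 452 in NOD ES, 447 in epiESM, 127 and 1160 in EpiSC iPS, 576 and 618 in EpiSC, 898 and 933 in the NOD EpiSC-like iPS line and 885 to 1274 in the NOD EpiSC-like ES line. Of the 20, 16 rose in the NOD EpiSC-like lines against NOD ES and 18 in EpiSC against mESM, where 17.4% and 12.6% of all genes rose. In both, 0 of the 20 fell (medians 2.48 and 4.23, against -0.22 and -0.28 for all genes). With slide as a fixed block 5 rose in each, and without NOD ES replicate 1 and EpiSC iPS replicate 2 all 20 and 19 rose. Decorin (Dcn), which fibroblasts secrete into the matrix, rose by 5.67 ± 0.62 and 7.58 ± 0.85, lumican (Lum) by 5.98 ± 0.55 in NOD cells, and periostin (Postn) was at least 316-fold higher in EpiSC than in mESM. The 2 ES-like arrays with the lowest levels of these factors had the highest fibroblast sums of the ES-like arrays, at 452 in NOD ES replicate 1 and 1160 in EpiSC iPS replicate 1. The epiESM array, at a near equal sum of 447, had levels of 3.55 for Pou5f1, 3.68 for Sox2 and 3.50 for Nanog. NOD ES replicate 1, at 452, had 2.26, 2.09 and 0.63. At that sum of 1160 the Pou5f1 level was 2.32, while at 885 to 1274 in the NOD EpiSC-like ES line it was at most -0.53. The iPS line, with sums within the range of the ES line, had the lower Pou5f1 and Sox2. Of the 20 genes, 0 were called higher and 4 lower in the iPS line than in the ES line. The median was -0.90, against 0.27 for all genes, of which 25.6% were called. Over both lines against EpiSC, 1 of the 20 rose and 0 fell, with 16.1% of all genes called. How much of the differences goes with fibroblast RNA was not tested.

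**Figure D4:**
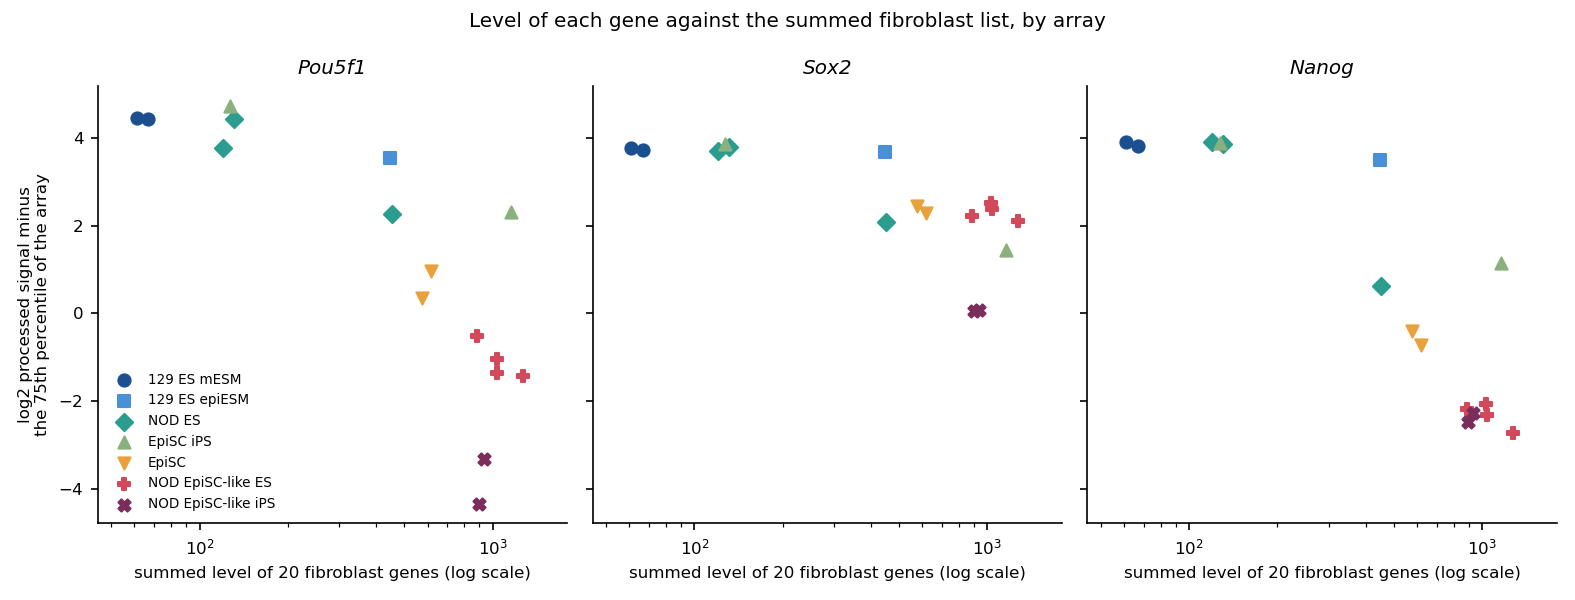
Level of each gene (log2 units) on the 16 arrays against the summed linear level of 20 fibroblast genes, on a log axis, 1 symbol per group. The 2 ES-like arrays with low levels have fibroblast sums of 452 and 1160, while the epiESM array has high levels at a sum of 447. The 2 NOD EpiSC-like lines differ in Pou5f1 and Sox2 at sums between 885 and 1274.

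Many partners and co-regulators of the 3 factors fell with them against ES cells. Of 20 genes whose proteins bind Oct4 or NANOG or act with them in ES cells, 16 fell and 0 rose in the NOD EpiSC-like lines against NOD ES (median -2.34, against -0.22 for all genes; 20.8% of genes fell and 17.4% rose). In EpiSC against mESM 11 fell and 0 rose (median -0.90, against -0.28; 11.5% of genes fell and 12.6% rose), 6 with the arrays scaled to their median and 5 with the mESM arrays averaged. Esrrb, the orphan nuclear receptor that binds Oct4, fell in both comparisons (-9.25 ± 0.77 and -8.72 ± 1.07), its probe being well above background on 1 of the 6 NOD EpiSC-like arrays and 1 of the 2 EpiSC arrays, so that these sizes rest on signals near background. Mybl2 (B-Myb), a cell cycle transcription factor, fell too (-5.10 ± 0.22 and -4.35 ± 0.31). Rif1, a replication timing and telomere protein found with Oct4, fell by 3.96 ± 0.27 in NOD cells, and Utf1, a chromatin factor of ES cells, fell by 4.02 ± 0.55 in EpiSC. Without NOD ES replicate 1 and EpiSC iPS replicate 2 the counts were 16 and 14. Between the 2 NOD lines, 2 of the 20 were higher and 2 lower in the iPS line. The median there was -0.09, against 0.27 for all genes, of which 25.6% were called.

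Genes known to be driven by an Oct-Sox element in ES cells split. Of 5 tested (of 6 listed), 3 fell in both comparisons, where 20.8% (NOD) and 11.5% (EpiSC) of all genes fell. Zfp42 fell by 9.77 ± 0.73 in NOD cells and was at least 822-fold lower in EpiSC. In NOD cells 1 of the 6 EpiSC-like arrays read its probe well above background, so that size rests on signals near background. Fbxo15, an F-box protein gene used as a reporter of pluripotency, had differences of -6.92 ± 0.54 and -5.77 ± 0.75, and Utf1 of -3.13 ± 0.40 and -4.02 ± 0.55. Spp1, the gene of the secreted protein osteopontin, rose by 2.04 ± 0.33 in the NOD EpiSC-like lines and was 1.01 ± 0.45 higher in EpiSC without being called. Lefty1, a Nodal antagonist, was called in neither, at -1.18 ± 0.66 and 2.24 ± 0.91. Between the 2 NOD lines Lefty1 was lower in the iPS line, at -4.41 ± 0.79 log2 units (adjusted p = 0.00224, limma). Spp1 was higher there, at 1.61 ± 0.39 (adjusted p = 0.0118, limma), and Utf1, Zfp42 and Fbxo15 were not called.

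The naive network, the factors that ES cells express beside the core 3, fell for the most part. Of 15 genes tested (of 16 listed), 12 fell and 0 rose in the NOD EpiSC-like lines (median -5.06), and 11 fell and 1 rose in EpiSC (median -4.03). Of all genes 20.8% fell and 17.4% rose in the NOD lines (median -0.22), and 11.5% and 12.6% in EpiSC (median -0.28). Dppa5a, an RNA-binding protein gene of ES cells, had differences of -9.52 ± 0.17 and -9.94 ± 0.23. Dppa4, a chromatin protein gene of early embryos, fell by 9.51 ± 0.71 in NOD cells and was at least 323-fold lower in EpiSC. Its probe was well above background on 1 of the 6 NOD EpiSC-like arrays, so the NOD size rests on signals near background. The 1 listed gene that rose in EpiSC was Stat3, the effector of LIF signalling, by 1.73 (named after its value was seen).

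Regulators known to act on the promoters or enhancers of the 3 genes fell in part in the NOD lines. Of 19 tested, 9 fell and 2 rose in the NOD EpiSC-like lines and 4 fell and 3 rose in EpiSC, where the mean of all probes or the mESM arrays averaged moved the count of fallers to 6 and 2. In the NOD lines 20.8% of all genes fell, and risers were not more frequent than among all genes (17.4%). In EpiSC both counts are of the order of the 12.6% and 11.5% of all genes. Nr5a2 (LRH-1), a receptor that activates the Pou5f1 promoter, fell by 7.29 ± 0.52 in NOD cells, and Tbx3, a T-box factor of the naive network, fell by 4.16 ± 0.66. Nr2f2 and Nr2f1 (COUP-TFII and COUP-TFI), receptors that repress Pou5f1 through its hormone response element, rose in EpiSC, Nr2f2 by 6.75 ± 1.23 and Nr2f1 at least 18.1-fold. In the NOD lines Nr2f2 rose by 3.46 ± 0.89 and Nr2f1 at least 3.85-fold.

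Among other members of the 2 DNA-binding families, several SOX genes rose and few POU genes were called. Of 17 other SOX genes, 5 rose and 0 fell in the NOD EpiSC-like lines and 8 rose and 1 fell in EpiSC, where 17.4% and 12.6% of all genes rose and 20.8% and 11.5% fell. Sox9, a factor of many epithelial and cartilage precursors, rose by 3.97 ± 0.36 and at least 302-fold, Sox4, of the SOXC class, by 3.00 ± 0.48 and 4.04 ± 0.66, Sox17, the endoderm factor, by 3.69 ± 0.66 in NOD cells, and Sox5 at least 7.27-fold in EpiSC. Of 13 other POU genes tested (of 14 listed), 1 rose and 2 fell in the NOD lines, namely Pou6f1 (2.20 ± 0.42), the broadly expressed octamer factor Pou2f1 (Oct1; -1.49 ± 0.22) and Pou3f1 (Oct6; -0.72 ± 0.23). The share called is below that of all genes, of which 17.4% rose and 20.8% fell, and the median of -0.26 lies next to the -0.22 of all genes. With normexp both shifted up, to 0.99 for the list and 0.60 for all genes. In EpiSC 3 POU genes rose and 2 fell. Pou3f2 (Brn2), a neural factor, was at least 5.38-fold higher, Pou3f1, which fell in the NOD lines, rose by 1.25 ± 0.32, and Pou4f1 (-2.37 ± 0.66) and Pou2f2 (Oct2; -2.08 ± 0.57) fell. With normexp, slide as a fixed block or the mESM arrays averaged, 0 of these were called.

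The primed epiblast list was split in the NOD lines and mostly higher in EpiSC. Of 13 genes, 6 rose and 6 fell in the NOD EpiSC-like lines, among them Cdh2 (N-cadherin, 3.47 ± 0.53), Nodal, the ligand that keeps the primed state (-4.05 ± 0.32), and Foxd3, a forkhead factor of the epiblast (-3.01 ± 0.57). In EpiSC 8 rose and 2 fell. Of all genes 17.4% rose and 20.8% fell in the NOD lines, and 12.6% and 11.5% in EpiSC. Fgf5 was at least 398-fold higher in EpiSC, Cdh2 rose by 6.26 ± 0.74, and T (Brachyury), the primitive streak factor, by 5.86 ± 0.39. Over both NOD lines Fgf5 rose by 2.46 ± 0.28, with 4.09 ± 0.30 in the ES line and 0.82 ± 0.36 (not called) in the iPS line. T stood at 2.91 ± 0.30 in the ES line and -0.71 ± 0.36 (not called) in the iPS line. By itself the ES line had 6 risers and 5 fallers, and the iPS line 3 and 5.

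Lineage genes that the core factors are known to hold down in ES cells were higher for the neural list in both comparisons and for the endodermal list in the NOD lines, and mixed for trophectoderm, the lineage that ES cells enter when Oct4 is removed. Of 12 primitive endoderm genes, 9 rose and 0 fell in the NOD EpiSC-like lines, with Foxa2, the endoderm forkhead factor, at 5.34 ± 0.37, the fetal serum protein Afp at least 15.7-fold higher and the receptor Pdgfra at 4.34 ± 0.53. Not called there were Gata4 (0.40 ± 0.34), Hnf4a (0.21 ± 0.32) and Sox7 (0.00 ± 0.70). In all genes 17.4% rose in that comparison. In EpiSC 2 of 12 rose, near the 12.6% of all genes, namely Foxa2 (7.51 ± 0.51) and Sox17 (3.88 ± 0.91). The laminin chain Lama1 fell (-2.98 ± 0.34), and 5 rose with the deposited values or the arrays scaled to their median, and 7 without NOD ES replicate 1 and EpiSC iPS replicate 2. The summed endoderm list was 111 and 157 in the NOD EpiSC-like iPS line, the group with the lowest Pou5f1 and Sox2. It was 51.3 to 59.4 in the ES line, 39.6 and 40.4 in EpiSC and 6.26 to 18.8 on the ES-like arrays. Between the 2 NOD lines 3 of the 12 genes were called, near the 25.6% of all genes. All 3 were higher in the iPS line. These were Afp (5.11 ± 0.89), Lamb1 (1.85 ± 0.34) and Lama1 (1.24 ± 0.29), while Foxa2, Gata6 and Sox17 were not called.

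Of 12 neuroectoderm genes, 7 rose and 0 fell in the NOD lines and 8 rose and 0 fell in EpiSC, against 17.4% and 12.6% of all genes rising. The fatty acid-binding protein gene of neural precursors, Fabp7, rose by 7.97 ± 0.38 and 9.54 ± 0.52, the zinc finger gene Zic1 by 5.36 ± 0.42 and 5.96 ± 0.58, the microtubule protein gene Map2 by 3.95 ± 0.41 in NOD cells, and Pax3 at least 14-fold in EpiSC. Neurog2, Tubb3, Sox3 and Sox1 (0.42 ± 0.30 and -0.58 ± 0.41) were called in neither comparison, and Nes was not called in the NOD lines. The sums of this list were higher in the NOD EpiSC-like ES line, at 76.1 to 92.2, than in the iPS line, at 22.2 and 24.1. Of 13 trophectoderm genes, 1 rose and 5 fell in the NOD lines, with the AP-2 factor Tfap2c (-4.18 ± 0.25), the homeobox gene Esx1 (-3.24 ± 0.67) and Tead4 (-2.52 ± 0.41) lowest and a median of -1.24. With normexp the median was 0.36, below the 0.60 of all genes, and 2 rose and 2 fell. In EpiSC 4 rose and 3 fell, with the keratins Krt8 (4.14 ± 0.76) and Krt18 (4.05 ± 0.83) higher and Esx1 at least 25.4-fold lower. Of all genes 17.4% rose and 20.8% fell in the NOD lines, and 12.6% and 11.5% in EpiSC. Cdx2, the factor that opposes Oct4 in that lineage, was not called in either (-1.24 ± 0.66 and 2.63 ± 0.92). The trophectoderm sum was 337 and 338 in the NOD EpiSC-like iPS line and 64.5 to 78.7 in the ES line. It was 189 and 200 in EpiSC, 74.5 and 551 in EpiSC iPS and 76.8 to 268 in NOD ES. Of the 13 genes, 4 were called higher in the iPS line than in the ES line and 2 lower. In that comparison 25.6% of all genes were called. Krt7 (2.88 ± 0.65), Esx1 (2.49 ± 0.80), Krt18 (2.48 ± 0.72) and Tead4 (1.71 ± 0.49) were higher. Cdx2 was at least 1.8-fold lower, and Gata2 was lower too. How much each gene adds to the sums was not analysed.

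**Figure D5:**
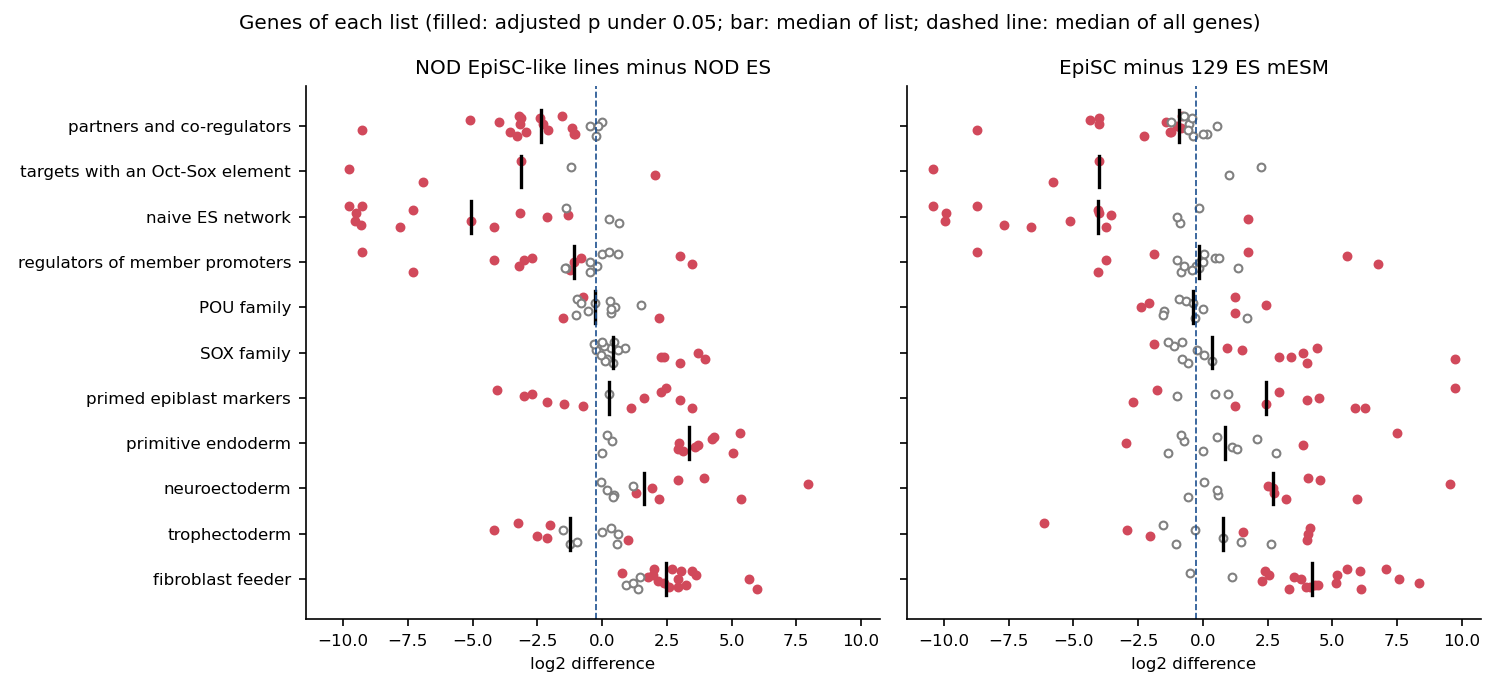
Log2 difference of every tested gene of 11 lists (rows) in the NOD EpiSC-like lines against NOD ES (left) and EpiSC against 129 ES mESM (right); filled points have an adjusted p under 0.05 in limma, black bars are list medians and the dashed line is the median of all genes. The medians of the partner and naive lists lie left of the dashed line and that of the fibroblast list right of it in both panels.

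Across the 16 arrays the 3 genes followed each other to different degrees. Pearson's r of log2 levels was 0.945 for Pou5f1 and Nanog, 0.869 for Pou5f1 and Sox2 and 0.790 for Sox2 and Nanog. These values describe 16 arrays that fall into 2 states and share lines and slides. Within the 8 ES-like arrays r was 0.936, 0.918 and 0.956 in that order, and within the 8 EpiSC and EpiSC-like arrays 0.719, 0.874 and 0.400. Among 22991 genes with a value on every array, Nanog was the 244th most like Pou5f1, and Sox2 the 1213th.

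The 5 genes with the highest r to Pou5f1 were Mutyh, a DNA repair glycosylase (0.986), Cpsf4l (0.984), Mnd1, a meiotic recombination factor (0.984), Rcl1 (0.983) and Rbpms2 (0.982). These genes were chosen for their pattern on the same arrays, so their differences are a description of it and no test. From the ES line to the iPS line Mutyh differed by -0.98, Mnd1 by -1.12 and Rbpms2 by -1.35, against -2.74 for Pou5f1. To Sox2 they were Gli2, an effector of Hedgehog signalling (0.975), Eri2 (0.973), Ndufs1, a subunit of respiratory complex I (0.971), Garre1 (0.967) and Pole2, a subunit of DNA polymerase epsilon (0.965). Gli2 stood at -0.96 in the ES line and -3.82 in the iPS line against NOD ES. To Nanog they were 1810014B01Rik (0.992), Ubqln4, a ubiquilin (0.991), Mkrn1, a makorin ubiquitin ligase (0.990), Ruvbl2, an ATPase of chromatin remodelling complexes (0.990), and Mrps5, a mitochondrial ribosomal protein (0.986). Mkrn1 stood at -3.60 in the ES line and -3.68 in the iPS line against the same NOD ES arrays.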

How the data were processed

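RNA of 16 mouse cultures was labelled with Cy3 and hybridised to Agilent arrays, per the labels' protocols. The deposited scanner files hold the spot intensity, and the processed signal was background-subtracted by Feature Extraction 10.1.1.1, per the file headers, with no scaling between arrays. The deposited value table holds log2 values that rank the features as the mean signal of the same array does (column median 6.93 on each); limma is named for it per the submitters' processing notes, with no settings. Control spots and outlier spots were left out. Log2 processed signals were scaled to each array's 75th percentile. Of 41174 gene probes, 34296 were well above background on at least 2 of 16 arrays, and the probe with the highest mean stood for its gene. limma 3.58.1 (R 4.3.3) fitted 7 group means over all arrays, for 13 comparisons and 1 interaction, with Benjamini-Hochberg adjustment at 0.05. Where a probe was dim on every array of 1 of the 2 sides, the fold is a lower bound against the lowest signal well above background.

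Unequal change was tested by exact permutation of arrays on within-array differences. Named list genes are up to 3 per list with the largest difference in the NOD and the EpiSC comparison, called ones first, and the 5 genes with the highest r to each factor, with other genes named where a count is small. The genes studied and all lists were chosen with earlier results of these data known. Alternatives were quantile and median scaling, normexp (offset 50), the deposited table, no filter, the mean of all probes, slide as a block, mESM averaged, fits on fewer groups, and arrays left out. The fit was tested on simulated data. Arrays carry no read depth, and their number limits the precision.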

Additional observations from a re-analysis of the deposited data

Results flagged for a closer look

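The difference from NOD ES was not the same in the 2 NOD EpiSC-like lines for Pou5f1 and Sox2, tested as the difference between the lines, which share the NOD ES arrays. Pou5f1 was lower in the iPS line by -2.74 log2 units (adjusted p = 0.0135, limma, 2 against 4 arrays, lower on 2 of 2 arrays). Sox2 was lower in the iPS line by -2.24 log2 units (adjusted p = 0.0179, limma, lower on 2 of 2 arrays). Both calls were lost with slide as a fixed block (limma, adjusted p = 0.111 and 0.228) and without iPS replicate 1 (-2.23 for each gene). No array of the 4 of the NOD EpiSC-like ES line stood far from the others in any of the 3 genes.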

How the results depend on the processing

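Pou5f1 and Nanog kept their direction and their call in 4 comparisons under every alternative run: EpiSC and EpiSC-like against ES-like groups, both NOD EpiSC-like lines against NOD ES, and each NOD line by itself against NOD ES. With 1 array left out at a time, 534 of the members' results kept direction and call, 25 lost a call, 7 gained one and 10 turned direction; under the other alternatives the counts were 320, 17, 15 and 14. The causes were not tested. The mean of all probes changed nothing, since each factor has 1 probe.

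With slide as a fixed block (12 coefficients for 16 arrays) calls were lost for Sox2 between the states (-2.23), in both NOD lines (-2.57) and in the iPS line (-3.60) against NOD ES and against the ES line (-2.07), for Pou5f1 in EpiSC against mESM (-3.44), EpiSC iPS against EpiSC (3.85) and the iPS against the ES line (-3.08), and for Nanog in EpiSC against mESM (-3.96). Nanog gained the call in EpiSC iPS against EpiSC with this block (5.98), the random block (3.58), quantile normalization (2.88) and the deposited values (2.73). Directions turned with the fixed block for values that were not called: Nanog in the iPS against the ES line (0.22; random block 0.11) and NOD ES against mESM (0.13), Sox2 in NOD ES (0.31) and epiESM (0.24) against mESM, and all 3 in EpiSC iPS against mESM (0.41, 0.87 and 2.01). With normexp, Pou5f1 lost its call in both lines against EpiSC (-0.98) and in EpiSC iPS against EpiSC (2.68), and was above 0 in the iPS against the ES line (0.33) and in the interaction (0.12), where the medians of all genes were 0.72 and 0.55, and Sox2 lost its call in the iPS against the ES line (-1.67). Nanog was above 0 there in the iPS line against the ES line (1.06) and EpiSC (0.26, median of all genes 1.03) and in the interaction (0.85; 0.01 with the deposited values). Relative to these medians Pou5f1 kept its direction in both (-0.39 and -0.42), as did Nanog against EpiSC (-0.77), and Nanog turned in the other 2 (0.34 and 0.30). Unequal change in NOD cells lost its call with normexp (Pou5f1 against Sox2 -2.02, Nanog against Sox2 -1.80), and Pou5f1 against Sox2 between the lines turned (2.0; 0.58 with the deposited values). Sox2 in the ES line against EpiSC turned with quantile normalization (0.03) and without EpiSC replicate 2 (0.01; -0.15 without replicate 1). With the mESM arrays averaged Nanog lost its call in EpiSC against mESM (-4.43).

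With the groups of a comparison fitted alone, Sox2 was called in EpiSC against mESM (-1.37) and, with Nanog, in both lines against EpiSC (-1.19 and -1.79), and Pou5f1 in EpiSC iPS against EpiSC was not (2.87). Without NOD ES replicate 1 and EpiSC iPS replicate 2 the same 3 calls were gained, as were Nanog in EpiSC iPS against EpiSC (1.71), Sox2 in the ES line against NOD ES (-1.45) and all 3 interactions (-2.77, -1.19 and -1.80). There Sox2 turned in EpiSC iPS against EpiSC (-0.93), Sox2 and Nanog in NOD ES against mESM (0.00 and 0.01), and Pou5f1 against Nanog between the states (0.08) and in NOD cells (0.11), and unequal change in NOD cells against Sox2 had adjusted p = 0.0536 by exact permutation (-3.91 and -4.03).
With 1 array left out at a time the ranges were, in EpiSC against mESM, -1.46 to -1.29 for Sox2 and -4.59 to -4.26 for Nanog, and in both lines against EpiSC -3.42 to -2.81 for Pou5f1, -1.27 to -1.11 for Sox2 and -1.95 to -1.63 for Nanog. In EpiSC iPS against EpiSC they were 1.66 to 4.07, -0.93 to 1.49 and 1.71 to 4.45, and in the iPS against the ES line -3.25 to -2.23, -2.30 to -2.16 and -0.20 to 0.04. In NOD ES against mESM they were -0.85 to 0.00 for Sox2 and -1.62 to 0.01 for Nanog, for Sox2 in the ES line against NOD ES -1.45 to -0.59, and for the interaction -2.77 to -1.68, -1.19 to -0.34 and -1.80 to -0.17. Unequal change in NOD cells ranged from -4.01 to -3.68 for Pou5f1 and from -4.03 to -3.20 for Nanog against Sox2, with no call without any 1 ES line or NOD ES array. Without a NOD ES array both had the smallest p that the remaining splits can give, so the loss of the call there was set by the number of arrays. For Pou5f1 against Nanog it ranged from -0.77 to 0.11 (-0.27 to 0.24 between the states). Without iPS replicate 1, Pou5f1 against Sox2 between the lines turned (0.01; -1.01 without replicate 2), and without EpiSC iPS replicate 1 all 3 values against mESM did (0.28, 0.12 and 0.02; -2.13, -2.30 and -2.72 without replicate 2). No paired analysis was possible because the groups compared share no replicate numbers in the labels; slides, which arrays of some groups share, were used as blocks instead. Pou5f1 in the iPS line, well above background on 1 of 2 arrays, is the value that signal over background limits most.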

Other observations

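The unequal change between the 2 NOD EpiSC-like lines was tested after the values had been seen. Set against Nanog, Pou5f1 was lower by -2.68 log2 units in the iPS line than in the ES line, and Nanog set against Sox2 was higher by 2.17, each with no overlap of 2 against 4 arrays. With 15 splits the exact permutation test could not go below p = 0.0667, which both values reached (adjusted p = 0.1 over 3 pairs). Pou5f1 set against Sox2 differed by -0.50 (exact permutation p = 0.467). In the NOD EpiSC-like lines against NOD ES, 22.4% of the 585 tested genes with an octamer core in the 250 bases before their start were called lower, and 23% of all tested genes with such a window were.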
